A study of Rattus norvegicus with 6 samples.

Results

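Genes for neurotransmitter-gated ion channels and for glutamate receptors were examined in lists of genes that carried trimethylation of lysine 27 of histone H3 (H3K27me3), measured by immunoprecipitating chromatin and sequencing the DNA from cultured heart muscle cells (primary cardiomyocytes) of newborn Sprague Dawley rats. A gene was a member when its symbol in any of the 4 lists was that of a subunit of a GABA-A, ionotropic glutamate, metabotropic glutamate, nicotinic acetylcholine, glycine, serotonin 5-HT3 or P2X receptor. The rule found 71 of the 22427 genes listed in any library. The control group was 2 libraries of cells given phosphate-buffered saline, here control 1 and control 2, and the treated group was 2 libraries of cells given 5 mM α-ketoglutarate (α-KG), here α-KG 1 and α-KG 2, each for 24 h. All cells came from heart and were grown on coated plates in medium with fetal bovine serum. The sources used here do not give the pups' age or any pooling of animals. Each list shows only whether a gene had a peak, so peak strength, peak position and read depth are unknown. An unlisted gene may lack the mark, may lie below detection or may be listed under another symbol or none. The labels do not say that the replicates were separate cultures, so a p-value measures only the spread between these libraries.

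Fast chemical transmission works through channels that open when a transmitter binds. Pentameric channels for acetylcholine, GABA, glycine and serotonin are built around a central pore from related subunits, ionotropic glutamate receptors are tetramers, and P2X receptors are trimers gated by extracellular ATP. Metabotropic glutamate receptors signal through G proteins instead. Most of these genes are known for their work in neurons. Nicotinic receptors also form the endplate receptor of skeletal muscle and carry transmission in autonomic ganglia, including those that slow the heart, and P2X4 is known in heart muscle. H3K27me3 is placed by Polycomb complexes on genes that a cell type keeps silent, and in mammals these complexes are often found at CpG-rich promoters. α-KG is a cosubstrate of the demethylases that remove the mark.

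Promoter sequence is shown for 4 members to let the reader see how unlike these genes are at their starts. Each run is the 250 bases before the RefSeq start site, read 5′ to 3′ on the gene's strand, with every CpG in capitals. Only members with a window in the RefSeq table were ranked, by the ratio of observed to expected CpG. Chrna7 had the highest ratio among those listed in all 4 libraries, and Gabra3 the lowest, level with Gabra6. Chrnb2 and Chrnd had the highest and the lowest among those listed in 1 or 2 libraries, where Chrnb3 had no window.
Chrna7, GRCr8 chr1:126249130-126249379, strand -: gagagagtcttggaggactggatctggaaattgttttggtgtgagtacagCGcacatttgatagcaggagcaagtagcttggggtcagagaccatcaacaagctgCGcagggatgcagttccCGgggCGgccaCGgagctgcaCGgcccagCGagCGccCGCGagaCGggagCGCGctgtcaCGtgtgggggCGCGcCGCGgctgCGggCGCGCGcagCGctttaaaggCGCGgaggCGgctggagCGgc
Gabra3, GRCr8 chrX:155543871-155544120, strand -: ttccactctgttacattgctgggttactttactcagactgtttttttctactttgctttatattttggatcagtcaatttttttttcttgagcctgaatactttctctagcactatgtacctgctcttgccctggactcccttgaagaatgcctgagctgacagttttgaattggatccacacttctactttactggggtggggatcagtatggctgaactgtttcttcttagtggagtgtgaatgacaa
Chrnb2, GRCr8 chr2:177487307-177487556, strand -: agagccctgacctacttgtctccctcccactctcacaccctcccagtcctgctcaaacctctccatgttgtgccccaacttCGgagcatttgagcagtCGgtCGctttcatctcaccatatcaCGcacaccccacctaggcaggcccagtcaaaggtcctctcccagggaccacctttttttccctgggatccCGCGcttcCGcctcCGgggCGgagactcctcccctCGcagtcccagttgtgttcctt
Chrnd, GRCr8 chr9:95310066-95310315, strand +: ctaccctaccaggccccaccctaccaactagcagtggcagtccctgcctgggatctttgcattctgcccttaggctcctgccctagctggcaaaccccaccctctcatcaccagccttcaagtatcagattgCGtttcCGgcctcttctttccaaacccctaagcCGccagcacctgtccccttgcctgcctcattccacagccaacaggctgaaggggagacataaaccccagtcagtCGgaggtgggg
The Chrna7 window held 27 CpGs (observed over expected 1.05, GC content 66.0%) and the Gabra3 window held 0 (GC content 40.4%). Both genes were listed in all 4 libraries. The Chrnb2 window held 10 CpGs (0.52) and that gene was listed in 2 libraries. The Chrnd window held 4 CpGs (0.20) and that gene was listed in 1. The median over the 19005 windows of protein-coding genes was 0.523. A window was found for 47 of the 71 members (66.2%), under the 80% needed, so a comparison of CpG content between fully and partly listed members is void and none is given. The coordinates are those of GRCr8, which differs from the rn6 build named for the peaks, so no peak can be placed on these windows.

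The mark was listed at nearly all members in each library, with or without α-KG. A member is a gene listed in any library, so the 5 receptor genes with no entry are not counted here. Of the 71 members, 63 (88.7%) were listed in all 4 libraries, where 62.8% of all listed genes were. Control 1 listed 67 members, control 2 listed 68, α-KG 1 listed 67 and α-KG 2 listed 67. The libraries thus lay within 1 gene of each other. The control mean was 67.5 ± 0.707 and the α-KG mean 67.0 ± 0 (SD, n = 2 each), a difference of -0.5 genes, and the exact two-sided permutation test over the 4 libraries gave p = 1, where 2 against 2 libraries cannot give less than 0.333. All genes together numbered 17245 and 18442 in the controls and 18120 and 19181 in the α-KG libraries, so their α-KG mean was 807 higher (18650.5 against 17843.5), with overlapping groups and an exact two-sided permutation p of 0.667. Each library listed 94.4% to 95.8% of the members and 76.9% to 85.5% of all genes, so the members had little room to be listed more often. No gene was left out for low values, since the lists hold none.

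**Figure D1:**
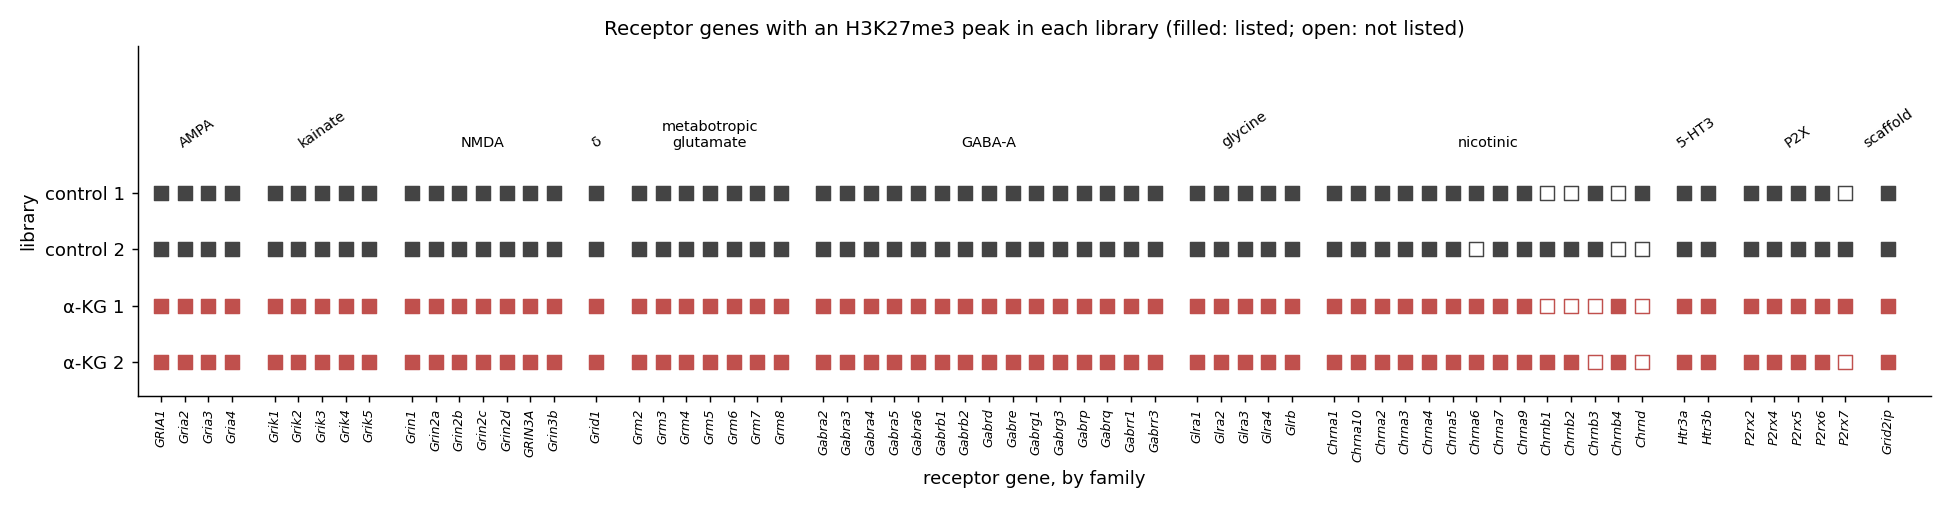
Listing of 66 of the 71 members (horizontal axis, by receptor family) in each library (vertical axis); a filled square is a listed gene and an open square a gene not listed, grey for control and red for α-KG. Open squares stand at 7 genes, 6 of them nicotinic subunits, and the glutamate receptor genes have none.

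Glutamate receptors, the main excitatory receptors of the brain, were listed without exception. Each of the 4 libraries listed all 26 genes. The AMPA receptor subunits, which carry fast excitatory current, are Gria1, Gria2, Gria3 and Gria4, and all 4 were listed throughout. The kainate receptor subunits Grik1, Grik2, Grik3, Grik4 and Grik5 (5 of 5) and the δ receptors (2 of 2, Grid1 among them), which bind synaptic organizers, were as well. So were the NMDA receptor subunits, whose channel admits calcium: the obligatory subunit Grin1, the glutamate-binding subunits Grin2a, Grin2b, Grin2c and Grin2d, and the glycine-binding Grin3a and Grin3b (7 of 7). The metabotropic receptors were listed in full too (8 of 8), among them Grm5, which couples to phospholipase C, and Grm2, Grm3, Grm4, Grm6, Grm7 and Grm8, which inhibit adenylyl cyclase. The deposited protein domain names, which the symbol rule did not use, gave the ionotropic glutamate receptor domain for all 18 ionotropic genes and the metabotropic glutamate receptor domain for all 8 metabotropic ones. One further member, Grid2ip, matched the rule by its letters and encodes a scaffold protein, not a receptor. It too was listed in all 4 libraries.

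Receptors for the inhibitory transmitters GABA and glycine were listed almost as fully. Of the 18 GABA-A genes, 17 were listed in all 4 libraries. Among these were the α subunits Gabra2, Gabra3, Gabra4, Gabra5 and Gabra6, which with β subunits form the GABA site, the β subunits Gabrb1 and Gabrb2, the γ subunits Gabrg1 and Gabrg3, the extrasynaptic δ subunit Gabrd, and Gabre, Gabrp, Gabrq, Gabrr1 and Gabrr3. The glycine receptor genes Glra1, Glra2, Glra3, Glra4 and the anchoring subunit Glrb (5 of 5) were listed in all 4 libraries, as were the serotonin-gated channel genes Htr3a and Htr3b (2 of 2).

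Nicotinic acetylcholine receptors were listed less fully than the other members, in a share near that of all listed genes. The β and δ subunits were listed least. Of the 14 nicotinic genes, 8 (57.1%) had an entry in every library. The same was true of 55 of the 57 other members (96.5%) and of 62.8% of all listed genes. All of these 8 nicotinic genes encode α subunits, most of which bear the main face of the acetylcholine site: the muscle subunit Chrna1, the neuronal Chrna2, Chrna3, Chrna4, Chrna5 and Chrna7, and Chrna9 and Chrna10 of cochlear hair cells. The remaining α subunit, Chrna6, known from dopamine neurons, was listed in control 1, α-KG 1 and α-KG 2. None of the 5 β and δ genes was listed in all 4 libraries. The controls listed 2 and 3 of these 5 (replicates 1 and 2) and the α-KG libraries 1 and 3. Of all 14 nicotinic genes the controls listed 11 and 11 and the α-KG libraries 10 and 12, so the means were equal at 11 (SD 0 and 1.41, n = 2 each). The comparison of nicotinic with other members was not planned. The division into α and other subunits was made after the values were seen, and no test was made of either.

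The partly listed nicotinic genes did not share a pattern. Chrnb3, a partner of α6 in dopamine neurons, had a peak in each control and in no α-KG library, and Chrnb4, the partner of α3 in autonomic ganglia, had one in each α-KG library and in no control. For each of these the groups did not overlap, in opposite directions. Chrnb1, the muscle β subunit, and Chrnb2, the partner of α4 in brain, were listed in control 2 and α-KG 2 alone, so they divided by replicate number and not by treatment. Chrnd, the muscle δ subunit, was listed in control 1 alone. Chrnb3 was the 1 member lost under α-KG (a peak in each control, none in the α-KG libraries) among the 65 in both controls, or 1.54%, where 3.22% of all genes were lost. Chrnb4 was the 1 member gained, the reverse pattern, among the 65 that both α-KG libraries listed, or 1.54%, where 4.48% of all genes were gained. Both shares lie below the background, and with 1 gene each they are no result about the receptors. Without control 2, Chrnd also counted as lost (2 of 67, where 5.24% of all genes were), without α-KG 1 the lost members were also 2 (of 65, where 8.55% were), and without control 1 Chrna6 also counted as gained (2 of 65, where 6.81% were). Of all genes with an entry in exactly 2 libraries, 1245 were split by treatment, 776 by replicate number and 523 in the remaining way, and among the 5 such members 2, 2 and 1 did.

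The skeletal muscle endplate receptor is built from Chrna1, Chrnb1 and Chrnd with Chrng before birth or Chrne in the adult. Of these 5 genes only Chrna1 was listed in all 4 libraries. Chrnb1 was in 2 and Chrnd in 1, and Chrng and Chrne had no entry under these symbols in any list. The E-box CAGCTG, the same on both strands, is a motif bound by basic helix-loop-helix factors such as MyoD. In the promoter windows it stood at Chrna1, Chrnb1, Chrng and Chrne (4 of 5) and not at Chrnd, and in 11.9% of all 19005 windows. It was not limited to the endplate genes, and also stood at P2rx6, Glra3, Gabrr3, Grm6, Grik1, Gria4, Grin3a and Gabrg3. The motif was not in the plan and no test of it was made. Observed over expected CpG in the 5 endplate gene windows ran from 0.0965 at Chrne to 0.482 at Chrnb1, with Chrnd, Chrng and Chrna1 at 0.20, 0.327 and 0.466. A match describes the letters of the window and shows no binding.

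The ATP-gated P2X receptors were mixed. P2rx2, P2rx4, P2rx5 and P2rx6 were listed in all 4 libraries (4 of 5). P2rx4 is the subtype known in heart muscle and P2rx2 a subtype of sensory and autonomic neurons. P2rx7, a receptor of immune cells that opens at high ATP, was listed in control 2 and α-KG 1, and so divided neither by treatment nor by replicate number. P2rx1 of smooth muscle and P2rx3 of pain-sensing neurons had no entry. In the RefSeq gene table, 76 genes match the symbol rule. The 5 with no entry under these symbols were P2rx1, P2rx3, Chrng, Chrne and Gabrr2. Another 2 entries had a receptor domain but no symbol, both listed in all 4 libraries, and whether they are among these 5 genes is unknown. Against all 76 genes, 82.9% were listed by symbol in all 4 libraries.

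Other channel groups showed how usual this fullness was. Potassium channel genes (symbols that start with Kcn) were listed in all 4 libraries in 82 of 90 cases (91.1%), and voltage-gated sodium and calcium channel, HCN and TRP genes in 40 of 51 (78.4%). The receptor genes at 88.7% lay between them, and no test of the differences was made. By library, the potassium channel genes numbered 83, 86, 85 and 89 and the sodium, calcium, HCN and TRP genes 41, 45, 48 and 47, in the order control 1, control 2, α-KG 1, α-KG 2. The last group had 4 gained genes of the 46 that both α-KG libraries listed (8.70%, beside 4.48% of all genes) and 0 lost of 41 (beside 3.22%). The potassium channel genes had 1 gained of 84 (1.19%) and 0 lost of 83. In both channel groups the α-KG mean was above the control mean, as it was for all listed genes, and the channel groups were not tested.

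**Figure D2:**
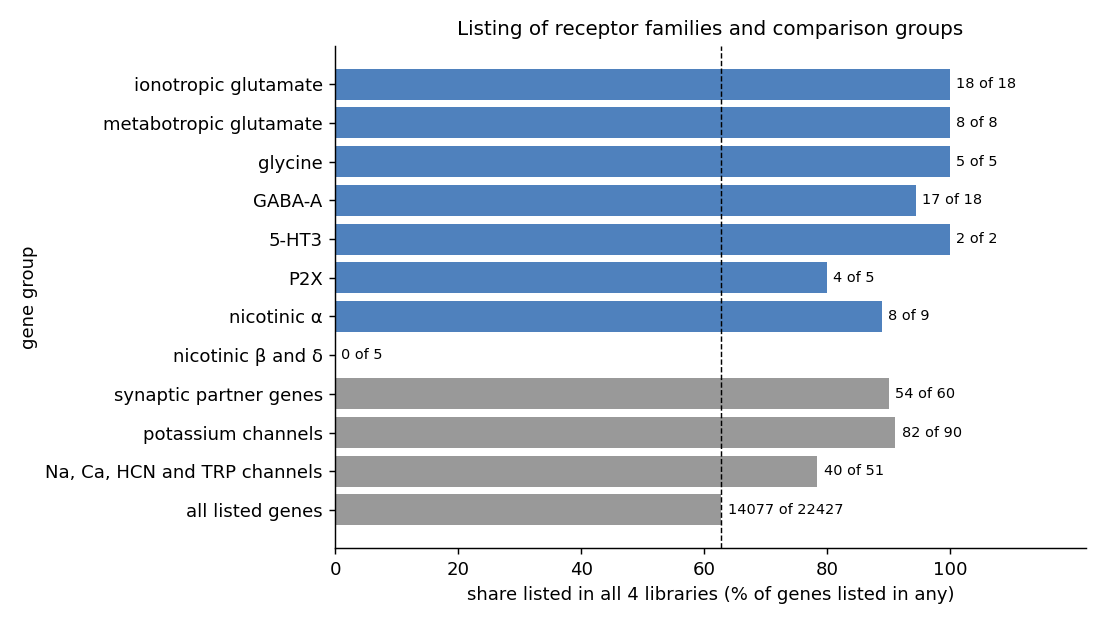
Share of genes listed in all 4 libraries (horizontal axis, percent of genes listed in any library) for receptor families (blue) and comparison groups (grey); the dashed line marks all listed genes at 62.8%. Glutamate, glycine and 5-HT3 receptor genes stand at 100%, nicotinic α subunits at 8 of 9, and the nicotinic β and δ subunits at 0 of 5.

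Genes that serve these receptors at the synapse were listed in a share close to that of the receptors. A list of 63 genes for scaffold, auxiliary, adhesion, transmitter-synthesis and other synaptic proteins had 60 with an entry. Of those, 54 (90.0%) were in all 4 libraries. The 54 included the glutamate receptor scaffolds Shank1 and Shank3, the AMPA receptor auxiliary subunit Cacng2 and the neurexins Nrxn2 and Nrxn3. Also among the 54 were the GABA-synthesizing enzymes Gad1 and Gad2, the GABA-B receptor genes Gabbr1 and Gabbr2, and Ache, whose product breaks down acetylcholine. The controls listed 55 and 56 of the 60 and the α-KG libraries 58 and 59. Both α-KG libraries lay above both controls, by 3 genes on average (55.5 ± 0.707 against 58.5 ± 0.707, SD, n = 2 each), and the exact two-sided permutation p of 0.333 is the smallest that 2 against 2 libraries can give. The lists of all genes were also longer with α-KG, at means of 18650.5 against 17843.5 genes, so the rise is not shown to be particular to the synaptic genes. The genes behind the difference were few. Shank2, a scaffold of excitatory synapses, and Cbln3, a secreted synaptic organizer of the cerebellum, were gained (2 of 57, or 3.51%, where 4.48% of all genes were gained). The acetylcholine-synthesizing enzyme gene Chat was listed in control 2 and both α-KG libraries. The scaffold gene Dlg4 and the nicotinic receptor modulator Lynx1 were in α-KG 2 alone. The gephyrin gene Gphn, which anchors GABA-A and glycine receptors, was in all but α-KG 2. The other endplate genes of this list, Musk, Agrn, Dok7 and Lrp4, were in all 4 libraries. No entry was found by symbol for the endplate scaffold Rapsn, the nicotinic receptor chaperone Tmem35a or the serine racemase gene Srr. The Srr product supplies the D-serine that NMDA receptors bind.

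Many receptor genes stand side by side in the genome, where neighbours could share a peak. In the RefSeq gene order of assembly GRCr8, receptor genes formed 11 runs with 15 adjacent pairs, of which 13 had an entry for both genes. In 9 of these 13 pairs both genes were listed in the same libraries, all 9 in all 4. Over all 10552 adjacent pairs of protein-coding genes with entries, 49.5% matched. Among the GABA-A genes, the neighbours Gabrg3 and Gabra5 were listed in all 4 libraries, as were Gabra6 and Gabrb2, Gabrb1 and Gabra4, and Gabra2 and Gabrg1. Members are listed in all 4 libraries more often than other genes, so more of their pairs would match even with no peak in common, and whether any pair shared a peak was not tested.

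**Figure D3:**
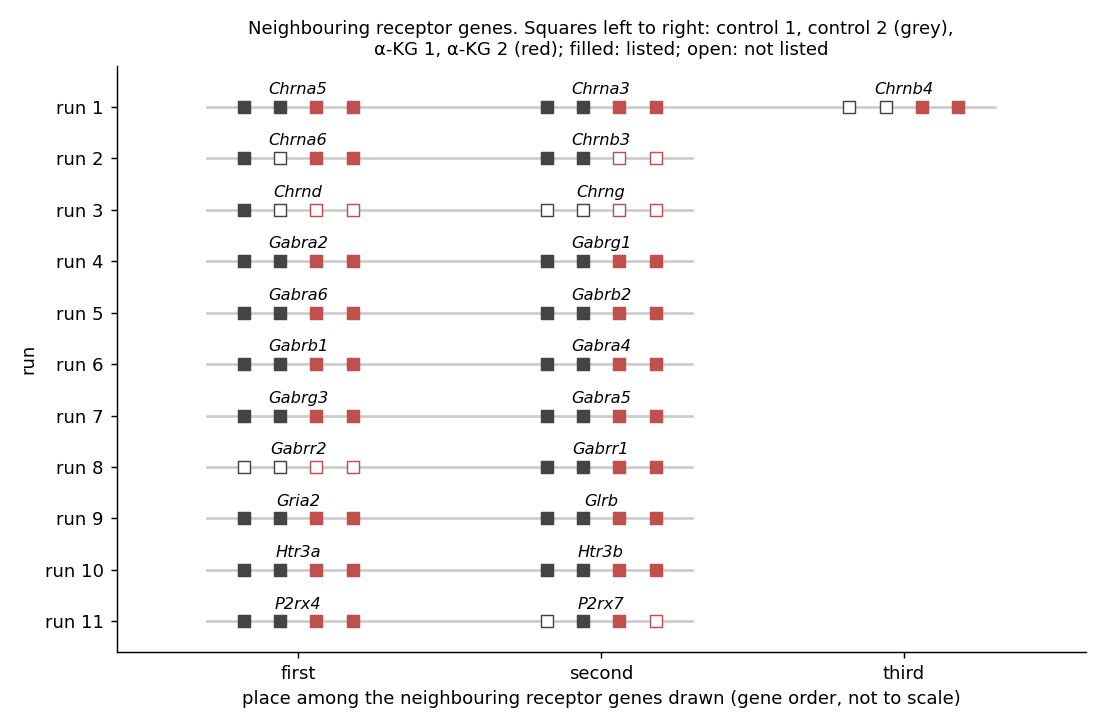
Receptor genes that stand next to each other in the RefSeq gene order (one run per line, place among the genes drawn on the horizontal axis, not to scale, some members not drawn); the 4 squares under each name are control 1, control 2, α-KG 1 and α-KG 2, filled where the gene was listed. The runs with differing neighbours are those of Chrnb4, Chrna6 with Chrnb3, Chrnd with Chrng, Gabrr2 with Gabrr1, and P2rx7.

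In the nicotinic runs neighbours differed. Chrna5, Chrna3 and Chrnb4 stand together in this order. Chrna5 and Chrna3 were listed in all 4 libraries, and Chrnb4 only in α-KG 1 and α-KG 2. On its other side Chrnb4 is next to Ube2q2, a ubiquitin-conjugating enzyme gene that was listed in all 4 libraries. Chrna6 and Chrnb3 are neighbours too. Control 1 listed both, control 2 Chrnb3 alone, and α-KG 1 and α-KG 2 Chrna6 alone, so 3 of the 4 libraries listed 1 gene of this pair and not the other. The loss at Chrnb3 thus stood beside a gene that both α-KG libraries listed, and the gain at Chrnb4 beside genes that both controls listed. The sources used here do not say how peaks were assigned to genes. Chrnb2 stood between Adar and Ube2q1, both listed in all 4 libraries, and P2rx7 between P2rx4 and Ift81, likewise both listed in all 4. Among the 8 partly listed members, 3 had both neighbours in all 4 libraries, 4 had 1 and 1 had 0, and among the 63 fully listed members the numbers were 16, 34 and 13. A neighbour whose symbol was found in no list counted as not in all 4, so these numbers do not show that it lacked a peak.

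Markers of cell types were listed as follows. Of 6 cardiomyocyte marker genes with an entry, 2 (Tnnt2 and Actc1) were in all 4 libraries, and Myh6 had no entry. The controls listed 3 and 4 of these 6 and the α-KG libraries 3 and 3. Ryr2 was lost, 1 of the 3 listed in both controls (33.3%, beside 3.22% of all genes). Neuronal markers were in all 4 libraries in 5 of 8 cases, and Schwann cell and glial markers in 4 of 5. The controls listed 5 and 6 of the 8 neuronal markers and the α-KG libraries 7 and 8, whose lists were also longer on average over all genes. Tubb3 was gained, 1 of the 7 neuronal markers in both α-KG libraries (14.3%, beside 4.48% of all genes). With 1 gene each, the loss and the gain are no result about these marker sets. Fibroblast markers had 3 of 4 in all 4 libraries, smooth muscle 1 of 1, endothelial 2 of 2, immune 1 of 1 and skeletal muscle markers 3 of 3. These shares count only genes with an entry. The other smooth muscle marker, Acta2, and the other immune marker, Cd68, had no entry in any list. A peak at a marker does not show which cells in the culture carried it, so these counts do not check the labelled cell type, and their part in the listing of the receptor genes was not tested.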

How the data were processed

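Gene lists of 4 H3K27me3 libraries (2 control, 2 α-KG) were analysed; the 2 input samples, which the labels describe as IgG, were not used here. The deposited files hold no score, count or other measured value: per library, the authors list the Ensembl gene ID, symbol and protein domain names of each gene with a peak. CASAVA, BWA and MACS2 and the build rn6 appear in the submitters' processing notes, with no role or version. Depth is unknown, so no interval was computed.

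Members were found by symbol, ignoring case, with Python 3.11.15 and pandas 2.3.3. The members and gene lists were chosen with earlier results of these data known, and the rule was to name every member. A few members are counted but not reported by name. For counts per library an exact permutation test, two-sided, was used (numpy 2.4.6), and a replicate block was an alternative. Lost and gained genes were counted without a test. All 71 members matched the RefSeq gene table (GRCr8) by symbol, which served for names and gene order; promoter windows also come from RefSeq. Planned protein motifs were not run. Pattern counting was tested on simulated data. Other alternatives left out each library, chose members by protein domain, dropped Grid2ip, counted symbols, or took all RefSeq receptor genes as the denominator. Figures were drawn with matplotlib 3.10.9.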

Additional observations from a re-analysis of the deposited data

How the results depend on the processing

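Listing in all 4 libraries and the near equality of the groups held under the alternatives tried, with the exceptions given here. The difference in listed members, -0.5 genes, ranged from -1 to 0 when 1 library was left out; it was 0 without control 2, where the groups are equal. With a replicate block, differences within same-numbered libraries were 0 and -1, the mean was -0.5 and the exact sign-flip p was 1; the labels do not say that a number marks a shared batch, and 2 pairs cannot show it. Lost members ranged from 1 to 2 and gained members from 1 to 2 without 1 library, by construction since fewer libraries must share the pattern. The share in all libraries used ranged from 88.7% to 90.1% without 1 library. It was 88.9% when members were chosen by domain (72 entries, 2 of them without a symbol, both in all 4 libraries), 88.6% without Grid2ip, and 82.9% of RefSeq receptor genes. Counting symbols changed nothing, since each symbol had 1 entry. Nicotinic genes listed in every library used numbered 8 to 9 without 1 library, a setting added after the data were seen. With presence or absence alone, a change in the strength of the mark cannot be seen at the 63 members listed in every library.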
